A study of Mus musculus with 15 samples.

Results

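The genotype effect of a p53 mutation in leukemic mouse B-cells was examined in 10 RNA-seq libraries that were selected on 2 measured genes out of the 15 in the series. Malignant cells had been taken by mechanical disruption from tumor-burdened spleens of Eμ-TCL1 mice and of Eμ-TCL1;p53R172H/+ mice, all on a C57BL/6 background, and cultured for 24 h with vehicle (DMSO) or with 5 μM ibrutinib. In Eμ-TCL1 mice, which both genotypes are, a TCL1 transgene is driven in B-cells by an immunoglobulin heavy-chain enhancer. The second genotype also carries in its germline 1 copy of Trp53 with the R172H missense change and 1 wild-type copy. The study examined loss of the wild-type copy in such leukemias, and whether the cells of these libraries kept it is not given. The chosen libraries were Eμ-TCL1 replicates 3 and 4 and Eμ-TCL1;p53R172H/+ (below, mutant) replicates 3, 4 and 5, each number in DMSO and in ibrutinib, so that 4 Eμ-TCL1 libraries stood against 6 mutant libraries. No cell sorting is described, and the age of the animals is not given in the sources used here. All 15869 genes found in the tables of both treatments were compared.

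The libraries were chosen by Btk, the tyrosine kinase that ibrutinib inhibits, at a normalized CPM (read counts scaled to library size) of 10 or more, and by Lyz2, a lysozyme of myeloid cells, under 1000 CPM. Both genes are therefore described without a test. Inside the limits, Btk was 95.4 and 64.2 in Eμ-TCL1 in DMSO, 89.1 and 44.4 in Eμ-TCL1 in ibrutinib, 77.8, 67.3 and 83.2 in mutant cells in DMSO, and 22.3, 44 and 31.3 in mutant cells in ibrutinib. The lowest of these, mutant replicate 3 in ibrutinib, stood nearest to the limit from inside, and mutant replicate 2 in DMSO, at 4.2, stood nearest from outside. Lyz2 was between 24.4 and 224.1 in the 10 libraries, whereas Eμ-TCL1 replicate 2 in DMSO and replicate 1 in ibrutinib, which were left out, had 7931.4 and 5895.8. The 3 mutant libraries left out for Btk had 3.6, 4.2 and 1.4. Cd79a, which encodes a signaling chain of the B-cell receptor, ranged from 81.1 in mutant replicate 3 in ibrutinib to 421.5 in Eμ-TCL1 replicate 3 in ibrutinib.

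**Figure D1:**
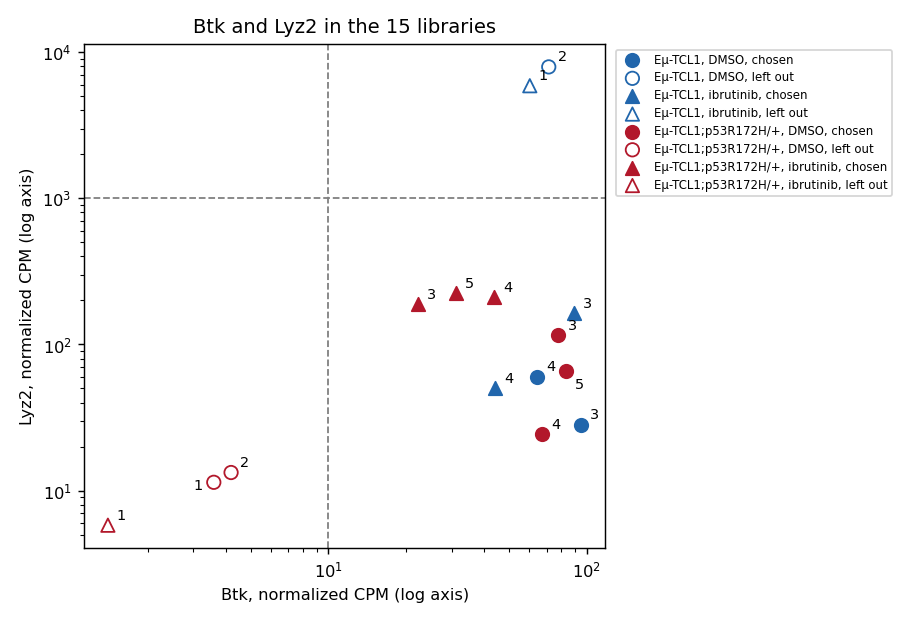
Each point is 1 of the 15 libraries, with Btk on the horizontal and Lyz2 on the vertical log axis, both in normalized CPM, and the replicate number beside it. Dashed lines mark 10 for Btk and 1000 for Lyz2, and the 10 filled points in the lower right field were chosen, with Btk from 22.3 to 95.4 and Lyz2 from 24.4 to 224.1.

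The Eμ-TCL1 mouse develops a leukemia of CD5-positive B-cells that resembles aggressive chronic lymphocytic leukemia. Each leukemic clone carries 1 rearranged heavy-chain and 1 rearranged light-chain variable gene, which together form its B-cell receptor. Its messenger RNA therefore shows which variable genes the clone uses. Signals of this receptor pass through Syk, Btk and the adaptor Blnk to calcium and NF-κB, and p53 is the transcription factor that answers DNA damage with cell-cycle arrest or cell death, through targets such as Cdkn1a and Mdm2.

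The variable genes are shown first, because different leading genes tell clones apart, whereas the same leading genes need not mean 1 clone. Ighv1-55 led the heavy-chain genes in all 4 Eμ-TCL1 libraries, at 817.4 and 1093.9 in DMSO and 765.4 and 1146.3 in ibrutinib, and Igkv12-89 led the light-chain genes there, at 916.7 and 1179.5 and at 1478.4 and 1413.1. Ighv6-3 with Igkv12-46 led in mutant replicates 3 and 5 in DMSO and in replicate 5 in ibrutinib, with Ighv6-3 at 576.7, 664.9 and 337.5. Ighv12-3 with Igkv4-91, a pair known from B-1 cells that bind phosphatidylcholine, led in mutant replicate 4, with Ighv12-3 at 606.3 in DMSO and 476 in ibrutinib. Mutant replicate 3 in ibrutinib was led by Ighv1-52 at 124.2 and Igkv19-93 at 492.3. Thus the Eμ-TCL1 libraries showed 1 pair of leading genes and the mutant libraries showed 3. The Eμ-TCL1 numbers differed in the second heavy-chain gene. Ighv5-9-1 was 98.8 and 109.4 in replicate 3, in DMSO and ibrutinib, and 0.1 and 0 in replicate 4. In mutant replicate 3 in ibrutinib, Igkv12-44 was the second light-chain gene at 195.2. The values are per gene and do not give the joined sequences, so a shared pair does not show a shared clone.

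The following stretches of 66 bases end with the codon of the conserved cysteine before the third hypervariable loop, as read from the GENCODE M21 transcripts of GRCm38. All genes lie on the minus strand, and each stretch is within the coding exon of its variable segment. Capitals mark the bases that differ from Ighv1-55 at the same distance from that codon, 25 in Ighv6-3 and 29 in Ighv12-3.
Ighv1-55, chr12:115208101-115208166: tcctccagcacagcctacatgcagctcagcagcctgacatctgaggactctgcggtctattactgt
Ighv6-3, chr12:114391717-114391782: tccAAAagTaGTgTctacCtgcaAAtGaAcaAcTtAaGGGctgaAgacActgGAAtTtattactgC
Ighv12-3, chr12:114366532-114366597: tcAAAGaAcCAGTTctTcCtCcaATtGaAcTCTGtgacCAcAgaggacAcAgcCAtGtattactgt
Ighv1-52 was identical to Ighv1-55 over this stretch, and over 270 bases before the end of the cysteine codon the pair differed at 31. The stretch of 66 bases with most differences, 19, is shown for both, with capitals again marking the bases that differ from Ighv1-55.
Ighv1-55, chr12:115208177-115208242: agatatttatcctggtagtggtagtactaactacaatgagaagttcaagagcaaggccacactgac
Ighv1-52, chr12:115145569-115145634: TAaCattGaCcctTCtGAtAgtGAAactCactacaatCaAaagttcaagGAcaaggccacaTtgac
For the kappa genes, capitals mark the bases that differ from Igkv12-89 in the stretch that ends with the cysteine codon, 14 in Igkv12-46, 22 in Igkv4-91 and 15 in Igkv19-93.
Igkv12-89, chr6:68834869-68834934: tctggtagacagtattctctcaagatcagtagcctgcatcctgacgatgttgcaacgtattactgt
Igkv12-46, chr6:69764546-69764611: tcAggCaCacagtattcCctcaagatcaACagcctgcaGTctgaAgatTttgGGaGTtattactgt
Igkv4-91, chr6:68768580-68768645: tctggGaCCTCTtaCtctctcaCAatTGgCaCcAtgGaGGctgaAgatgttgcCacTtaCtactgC
Igkv19-93, chr6:68736320-68736385: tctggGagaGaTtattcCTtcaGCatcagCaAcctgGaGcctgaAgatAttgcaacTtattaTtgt
Reads of similar variable segments can be assigned to a neighbour, although Ighv1-55 stood at 0.5 in the library that had Ighv1-52 at 124.2.

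**Figure D2:**
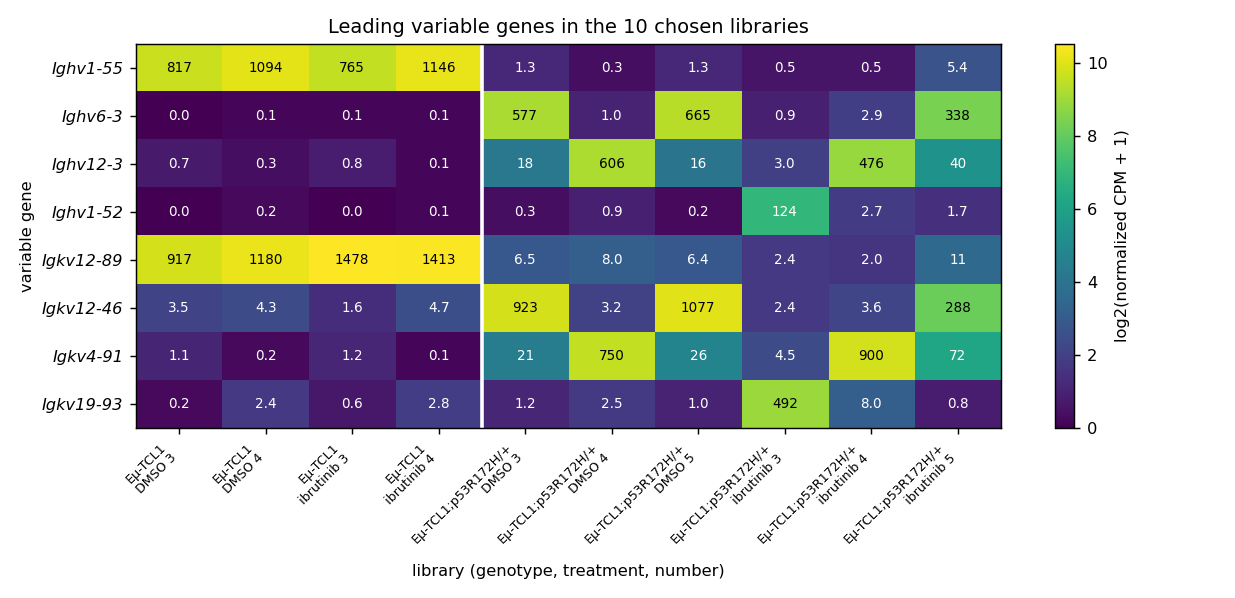
The rows are the leading variable genes and the columns are the 10 chosen libraries, with color for log2(normalized CPM + 1) and the normalized CPM written in each field. The 4 Eμ-TCL1 libraries to the left of the white line share Ighv1-55 and Igkv12-89, and the mutant libraries show the 3 pairs of Ighv6-3 with Igkv12-46, Ighv12-3 with Igkv4-91, and Ighv1-52 with Igkv19-93.

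The libraries also stood apart in ways that bear on every result below. Xist was 837.6 to 1491.3 in the Eμ-TCL1 libraries, in mutant replicates 3 and 5 in DMSO and in mutant replicate 5 in ibrutinib, and at most 1.2 in the other 3 mutant libraries, where the Y-linked Ddx3y was 75.1 to 93.8. Mutant replicate 3 thus had a female pattern in DMSO and a male pattern in ibrutinib, along with other variable genes, so that this number did not join cells of 1 mouse. All 4 chosen Eμ-TCL1 libraries had the female pattern, as did 3 of the 6 mutant libraries. Summed B-cell markers (10 genes, without Btk, which chose the libraries) were 4738 and 6311.6 in Eμ-TCL1 and 3489.7 to 4603.4 in mutant cells in DMSO, and 2872 and 3792.1 against 604.7 to 1654.7 in ibrutinib. Summed T-cell markers (15 genes) were 201.5 and 683.5 against 289.4 to 330.6 in DMSO, but 187.3 and 645 against 1078.2 to 2159.5 in ibrutinib. The B-cell label therefore held least well for mutant replicate 3 in ibrutinib, which had 604.7 of B-cell and 2159.5 of T-cell markers. The mitochondrial ribosomal RNA mt-Rnr2 took 3.44% to 34.7% of a library. In such bulk samples, fewer cells of a type and less RNA per cell cannot be told apart.

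Of the 15869 genes, 439 (2.77%) were higher and 841 (5.3%) were lower in mutant cells at an adjusted p under 0.05, in a limma fit with treatment as a covariate, and 4010 had an unadjusted p under 0.05. The median difference over all genes was 0.00 on the log2 scale. The genotypes did not overlap in either treatment, in the same direction, in 2039 genes (12.8%), of which 799 were higher and 1240 lower in mutant cells. In 215 other genes they did not overlap in either treatment but lay in opposite directions. Since libraries of 1 clone or mouse are not independent, the fit was repeated with a random term for libraries that share a genotype and their leading variable genes, the Eμ-TCL1 numbers being kept apart. This term, chosen after the data were seen, left 327 genes, 38 higher and 289 lower, all of them among the 1280. Its adjusted p is given below as the p with a clone term. All 4 Eμ-TCL1 libraries share 1 pair of leading genes, so this term cannot tell the genotype from that pair or from a clone they may share. Leaving out 1 library at a time changed the count to between 541, without Eμ-TCL1 replicate 3 in DMSO, and 1421, without mutant replicate 4 in DMSO. The count also fell by over 1.5 times without Eμ-TCL1 replicate 4 in DMSO (798) or ibrutinib (658), without mutant replicate 3 or 5 in DMSO (765 and 829), and without mutant replicate 4 or 5 in ibrutinib (844 and 648). Without both libraries of a number it was 719 and 503 for Eμ-TCL1 replicates 3 and 4, and 440, 1127 and 340 for mutant replicates 3, 4 and 5. After averaging the libraries of each number, 58 genes were called, 7 higher and 51 lower.

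The difference between genotypes was also estimated within each treatment. In DMSO, 470 genes (2.96%) were called, 182 higher and 288 lower in mutant cells, and in ibrutinib 498 genes (3.14%) were called, 213 higher and 285 lower. The 135 genes called in both treatments, all in the same direction in each, were 28.7% of the calls in DMSO and 27.1% of those in ibrutinib. No gene was called for a different genotype effect in the treatments (limma interaction, 0 genes), and 1419 had an unadjusted p under 0.05. The treatments came in tables that the authors scaled separately, so levels are compared between genotypes only. These counts rested on few libraries. For DMSO, dropping Eμ-TCL1 replicate 3 or 4 of that treatment gave 90 or 46 genes, dropping mutant replicate 3 or 5 gave 93 or 99, and dropping mutant replicate 4 gave 950. For ibrutinib, dropping Eμ-TCL1 replicate 3 or 4 of that treatment gave 38 or 97 genes, and dropping mutant replicate 3 or 5 gave 263 or 331. Libraries of the other treatment also moved them, to 300 and 310 in DMSO (mutant replicates 5 and 4 in ibrutinib) and to 262 and 317 in ibrutinib (mutant replicates 3 and 5 in DMSO).

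**Figure D3:**
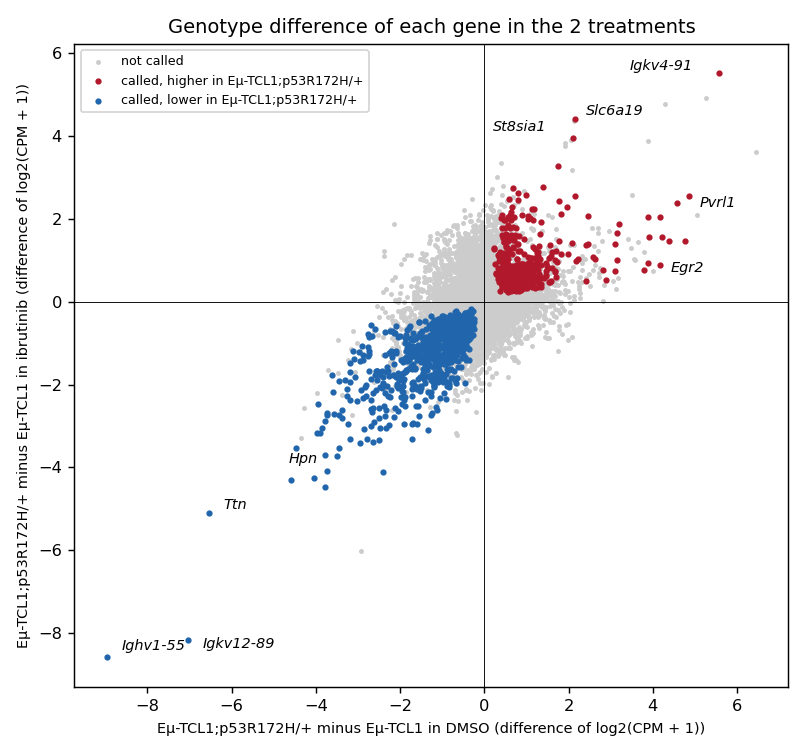
Each point is 1 of the 15869 genes, with the difference of mutant minus Eμ-TCL1 on the log2(CPM + 1) scale in DMSO on the horizontal axis and in ibrutinib on the vertical axis. Red and blue points are the 439 genes called higher and the 841 called lower in mutant cells over both treatments, and Ighv1-55, Igkv12-89 and Ttn lie farthest to the lower left.

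Trp53, Mdm2 and Cdkn1a did not pass between the genotypes in the limma fit. With so few libraries this does not show that their levels were equal. Trp53 (chr11:69580359-69591873) was 47.4 and 52.3 in Eμ-TCL1 and 54.8, 56.6 and 67 in mutant cells in DMSO, and 35.2 and 22.7 against 39.5, 31.8 and 36.9 in ibrutinib. The groups touched only in ibrutinib, where mutant replicate 4 lay below Eμ-TCL1 replicate 3, and the log2 difference of 0.29 (standard error 0.14, adjusted p = 0.221) did not pass. Reads of both Trp53 alleles were counted as 1 gene. Mdm2, the ubiquitin ligase that p53 induces and that degrades p53, overlapped in both treatments, with a log2 difference of 0.05 (standard error 0.13, adjusted p = 0.849). Cdkn1a, the cell-cycle inhibitor p21, was 2.8 and 10.4 against 3.9, 14.8 and 7.9 in DMSO and 7.3 and 6 against 5.7, 15 and 3.5 in ibrutinib, with no order between the genotypes (0.23, standard error 0.46, adjusted p = 0.794).

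Among 34 measured p53 target genes the median log2 difference was 0.04, and 20 were higher and 14 lower in mutant cells without regard to the test. Of these, 2 rose and 1 fell, 8.82% against 8.07% of all genes called in either direction. Plk3, a polo-like kinase of stress responses, rose by 1.2 (standard error 0.20, adjusted p = 0.00998, with a clone term 0.0465), from 8 and 10.3 to 20.8, 37.5 and 24.5 in DMSO and from 4.3 and 5.6 to 11.7, 10 and 9.3 in ibrutinib. Its relative Plk2 also rose (3.48, standard error 0.91, adjusted p = 0.0479, with a clone term 0.144). In Eμ-TCL1, Plk2 was 0.6 and 17.4 in DMSO and 1.5 and 7.8 in ibrutinib, and in mutant cells it was 146.1, 94.3 and 152.4 and then 4.2, 41.8 and 64.5, so that the genotypes overlapped in ibrutinib. Btg2, an antiproliferative gene, fell by 0.62 (adjusted p = 0.0494, with a clone term 0.161). With 1 library left out, Plk2 and Btg2 each passed in 1 of 10 fits. Bax, an effector of cell death, was 27.4 and 36.7 against 52.7, 66.1 and 70.3 in DMSO (0.61 over both treatments, adjusted p = 0.0748), and Ccng1 had a difference of -0.66 (adjusted p = 0.0827). Of 14 p53 regulators, 0 passed in the limma fit and 4 had an unadjusted p under 0.05.

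The largest differences were those of the variable genes already shown. Ighv1-55 was lower by 8.77 on the log2 scale (standard error 0.41), at 0.3 to 5.4 in the mutant libraries, and Igkv12-89 was lower by 7.61 (standard error 0.39). Both genes are the leading pair of the Eμ-TCL1 libraries, and the clone term was built from leading variable genes. They are therefore described without a test. The neighbouring kappa genes Igkv13-87 and Igkv1-88 had differences of -3.61 and -3.01. Igkv13-87 was 19.7, 6.9, 17.3 and 8.5 in Eμ-TCL1 and at most 0.3 in mutant cells. Of 55 heavy-chain variable genes, 11 rose and 1 fell, with a median of 0.36, and of 65 light-chain variable genes 7 rose and 6 fell, with a median of 0.43. These shares called were 21.8% and 20%, with Ighv1-55 and Igkv12-89 counted, against 8.07% of all genes. No heavy-chain or light-chain variable gene passed as higher with a clone term. That term was built from leading variable genes, so it cannot decide whether such genes rose with the genotype. The constant-region genes of switched antibodies Ighg2b and Ighg2c rose by 1.79 (adjusted p = 0.0184, with a clone term 0.0710) and 1.68 (adjusted p = 0.0157, with a clone term 0.0828), at low levels that reached 11.9 and 10.7.

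Outside the receptor segments, the gene with the largest fall was Ttn, which encodes the muscle protein titin. Ttn was 1013.6 and 1096.9 in Eμ-TCL1 and 16.3, 13.1 and 5 in mutant cells in DMSO, and 1730.7 and 2834.9 against 90.7, 42.3 and 66.6 in ibrutinib. No mutant library came near an Eμ-TCL1 library, and the log2 difference was -5.82 (standard error 0.39, adjusted p = 0.000149, with a clone term 0.00126). Lipc, the hepatic lipase, was 60.3, 79.1, 60.8 and 88.2 in Eμ-TCL1 and 0.5 to 8.4 in mutant cells, a log2 difference of -4.13 (adjusted p = 0.00163). Hpn, a membrane serine protease, was 9.7 to 19.1 in Eμ-TCL1 and at most 0.4 in mutant cells, a log2 difference of -3.49 (standard error 0.18, adjusted p = 2.55e-05). The serine protease inhibitors Serpina3g and Serpina3f had differences of -4.01 and -3.53 (adjusted p = 0.000994 and 0.000416). Serpina3g was 99 to 177.5 in Eμ-TCL1 and 2.7 to 19.1 in mutant cells. Prox1, a homeobox factor of lymphatic endothelium, and Nebl, a nebulin-like protein, had differences of -3.45 and -3.57.

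A second set of genes fell but differed between the Eμ-TCL1 numbers. Gstt1, a glutathione transferase, was 17.9 and 22.4 in replicate 3 and 196.6 and 104.1 in replicate 4, in DMSO and ibrutinib, and at most 4.5 in mutant cells (a log2 difference of -4.45, standard error 0.69, adjusted p = 0.00698). Mybl1, a transcription factor of the MYB family, was 18.6 and 26.4 in replicate 3 and 87 and 151.8 in replicate 4, and at most 4.2 in mutant cells (a log2 difference of -4.16, adjusted p = 0.00468). Il9r, the interleukin 9 receptor, was 39.6 and 75.9 in replicate 3 and 113.8 and 200.1 in replicate 4 (a log2 difference of -3.74, adjusted p = 0.00902). In these 3 genes replicate 4 was above replicate 3 in both treatments, although the Eμ-TCL1 numbers share their leading variable genes. Gm15228, an X-linked transcript, also fell (-3.91, adjusted p = 0.0182), with 30.9 in mutant replicate 4 in DMSO as the exception among mutant libraries of at most 5.4.

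Outside the receptor segments, and among genes whose genotypes did not overlap in either treatment, the largest rise was that of Pvrl1 (nectin 1, a cell adhesion receptor). Pvrl1 was 0.9 and 1.4 in Eμ-TCL1 and 40.9, 77.4 and 71.6 in mutant cells in DMSO, and 2.3 and 1.2 against 6.9, 30.8 and 15 in ibrutinib (log2 difference 3.71, standard error 0.52, adjusted p = 0.00471, with a clone term 0.0287). Pdcd1, which encodes the inhibitory receptor PD-1, was 2.2, 2.3, 3 and 1.4 in Eμ-TCL1, and 69.8, 27.2 and 54.1 in DMSO and 14.2, 9.9 and 11.4 in ibrutinib in mutant cells (2.96, standard error 0.40, adjusted p = 0.00431, with a clone term 0.0278). St8sia1, the sialyltransferase of ganglioside GD3, was at most 3.8 in Eμ-TCL1, 10.7, 8 and 12.2 in mutant cells in DMSO and 62.3, 38.7 and 53 in ibrutinib (3.02, standard error 0.39, adjusted p = 0.00354). Slc6a19, a transporter of neutral amino acids, behaved likewise, at most 1.2 in Eμ-TCL1 and 5.5, 3.8 and 8.2 and then 50.4, 20.1 and 47.8 in mutant cells (3.28, adjusted p = 0.00521). These 4 genes passed without any 1 library and without any 1 number. Pdcd1 is also a gene of activated T cells, and summed T-cell markers were 289.4 to 330.6 in the mutant libraries in DMSO, within the Eμ-TCL1 values of 201.5 and 683.5, and 1078.2 to 2159.5 against 187.3 and 645 in ibrutinib. Their part in the Pdcd1 values was not tested.

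The other genes of this group were Man1c1, a Golgi mannosidase (3.10, adjusted p = 0.00793), Prss23, a serine protease (3.12, adjusted p = 0.0242, with a clone term 0.125), Ptgir, the prostacyclin receptor (2.54, adjusted p = 0.00740, with a clone term 0.0507), Spire1, an actin nucleator (2.88, adjusted p = 0.0194, with a clone term 0.0934), Ksr2, a scaffold of MAP kinase signaling (2.74, adjusted p = 0.0194, with a clone term 0.0903), and the predicted gene Gm14085 (2.52, adjusted p = 0.0348, with a clone term 0.0944). Prss23 was 31, 24 and 28.5 in mutant cells in DMSO and 0.7, 7.7 and 1.6 in ibrutinib, against at most 0.1 and 0.5 in Eμ-TCL1. Ksr2 was 154.9, 58.3 and 214.5 against 12.9 and 4 in DMSO, and 18.2, 11.6 and 12.8 against 5.1 and 3.2 in ibrutinib. In Ksr2 the genotypes lay farther apart in DMSO, with an interaction of -2.35 that did not pass after adjustment. Gm14085 was 1.1 and 8.1 against 19.5, 9.3 and 14.2 in DMSO and 1.8 and 14.6 against 63.6, 41 and 98.6 in ibrutinib.

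**Figure D4:**
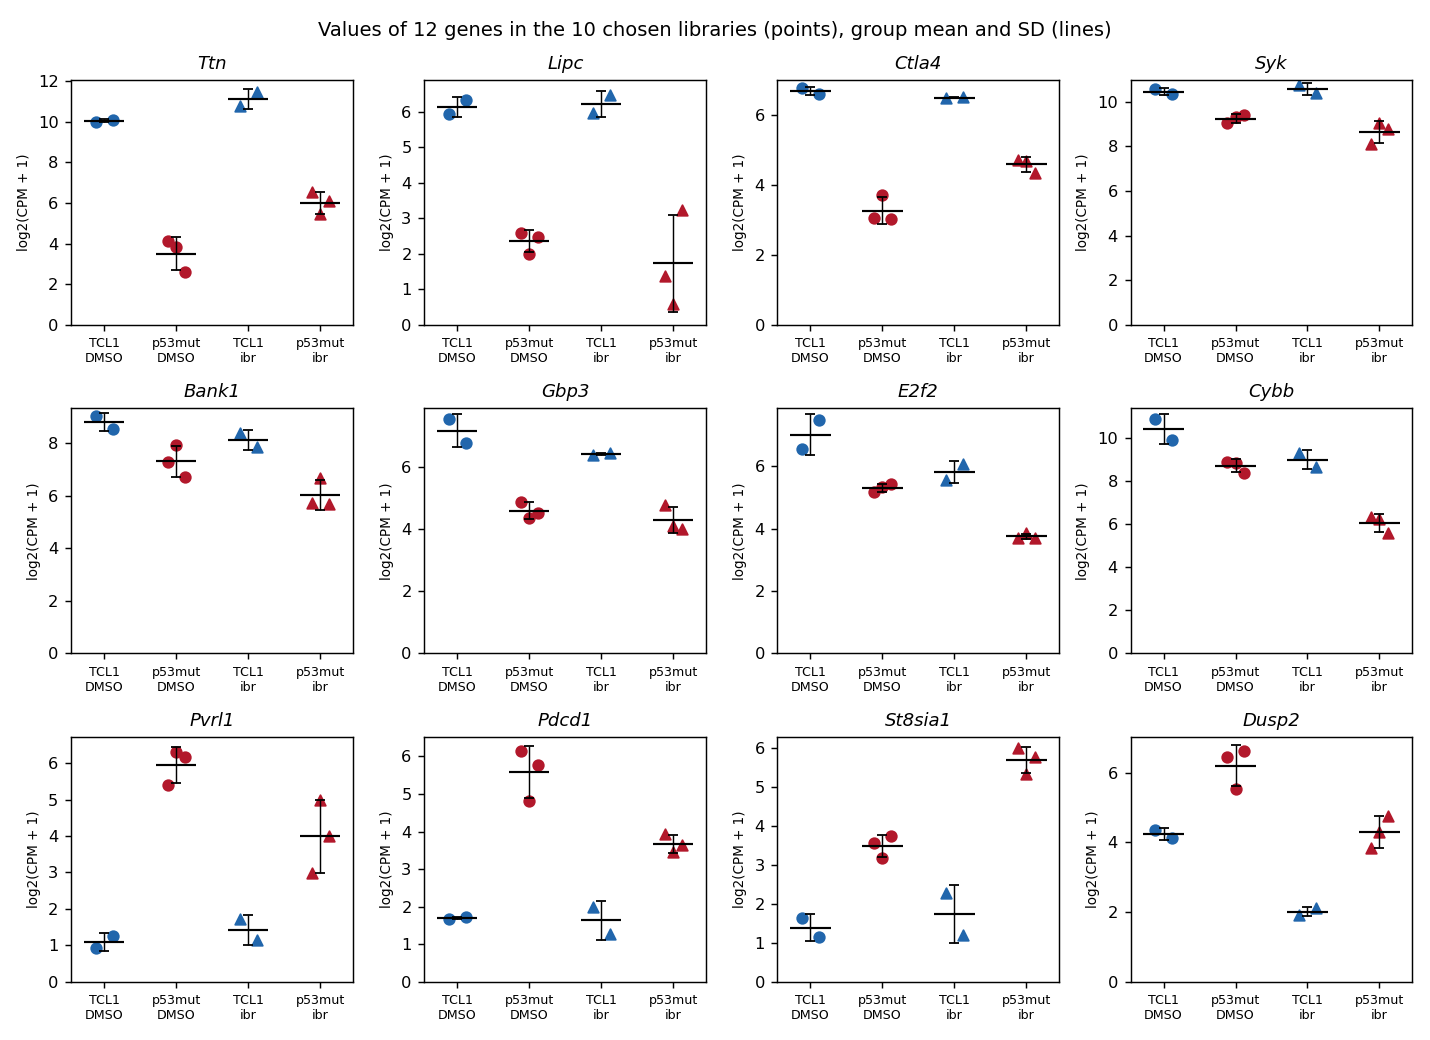
Each panel shows 1 gene as log2(normalized CPM + 1), with 1 point per library, a bar at the mean and whiskers for the SD of the 2 Eμ-TCL1 (blue) or 3 Eμ-TCL1;p53R172H/+ (red, labelled p53mut) libraries, circles for DMSO and triangles for ibrutinib (ibr). In all 12 panels the genotypes do not overlap in either treatment, with Ttn to Cybb lower and Pvrl1 to Dusp2 higher in the mutant libraries.

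Of 44 measured genes of B-cell receptor signaling, with Btk left out because it chose the libraries, 8 fell and 0 rose. With Btk counted the share that fell was 17.8%, against 5.3% of all genes. Without regard to the test 14 were higher, and 6 of the 8 also passed with a clone term. Syk, the kinase next to the receptor, was 1503.3 and 1309.8 in Eμ-TCL1 and 523.7, 630.2 and 675.8 in mutant cells in DMSO, and 1747.3 and 1345.8 against 276.3, 522.5 and 438.9 in ibrutinib, a log2 difference of -1.57 (standard error 0.24, adjusted p = 0.00698, with a clone term 0.0280). The scaffold Bank1 fell by 1.79 (standard error 0.29, adjusted p = 0.00884), the adaptor Blnk fell by 1.41 (standard error 0.26, adjusted p = 0.0142), and the adaptor Dapp1 fell by 0.88 (standard error 0.11, adjusted p = 0.00328). The inhibitory receptor Pirb fell by 1.24 (adjusted p = 0.00496). Dapp1 was 72.4 to 88.2 in Eμ-TCL1 and 32 to 57.3 in mutant cells. Map3k15, a stress kinase listed here with the receptor genes, was 26.9, 15, 38.5 and 30 in Eμ-TCL1 and 2.8, 3.1, 3, 9.3, 9.1 and 8.3 in mutant cells, a log2 difference of -2.12 (standard error 0.20, adjusted p = 0.000649, with a clone term 0.00368). These 6 genes passed without any 1 library.

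The other members that fell were less stable. Cd79b, the partner of Cd79a, was 1393.4 and 1163.1 against 772.8, 604 and 789.1 in DMSO and 742.6 and 835.2 against 134.2, 347.8 and 333.3 in ibrutinib, a log2 difference of -1.24 (adjusted p = 0.0379, with a clone term 0.0928) that passed in 1 of 10 fits without 1 library. Rasgrp3, a Ras activator, fell by 2.52 (adjusted p = 0.0400, with a clone term 0.1004), but mutant replicate 4 in DMSO, at 169, lay inside the Eμ-TCL1 values of 166 and 203.5. Plcg2 and Lyn had differences of -0.84 and -0.67 (adjusted p = 0.0850 and 0.109), and Bcl10 of 0.00 (adjusted p = 0.997). The 44 members without Btk had a median of -0.43 over both treatments, -0.05 in DMSO and -0.77 in ibrutinib. Summed B-cell markers, also without Btk, were 3489.7 to 4603.4 against 4738 and 6311.6 in DMSO and 604.7 to 1654.7 against 2872 and 3792.1 in ibrutinib. With the summed T-cell markers as a covariate, Syk, Bank1, Blnk, Dapp1, Pirb and Map3k15 stayed past the threshold, and Cd79b and Rasgrp3 did not. The part of B-cell content in these values was not tested.

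Genes that respond to the receptor went the other way in part. Of 23 members, 20 were higher in mutant cells without regard to the test, and the median was 0.53. Of these 23, 4 rose and 2 fell (26.1% called, against 8.07% of all genes). Dusp2, a nuclear phosphatase of MAP kinases, was 19.5 and 16.4 in Eμ-TCL1 and 86.9, 45.5 and 98 in mutant cells in DMSO, and 2.8 and 3.3 against 13.2, 18.9 and 25.9 in ibrutinib (2.13, standard error 0.25, adjusted p = 0.00219, with a clone term 0.0116). The immediate-early gene Ier2 rose by 1.13 (adjusted p = 0.0142, with a clone term 0.0616). Egr2, an early growth response factor, was 13 and 6.8 against 241.5, 98.6 and 268.3 in DMSO but only 0.3 and 0.1 against 0.9, 2 and 0.9 in ibrutinib (2.52, standard error 0.62, adjusted p = 0.0385, with a clone term 0.183). Egr1 was 9.1 and 2 against 61, 189.5 and 130.6 in DMSO and 0.8 and 0.8 against 1.3, 14.2 and 2.6 in ibrutinib (2.94, standard error 0.74, adjusted p = 0.0415, with a clone term 0.158). The genotypes did not overlap for either Egr gene in either treatment, and the interaction had an unadjusted p of 0.000895 for Egr2 and 0.0383 for Egr1 and passed for neither after adjustment. Nr4a1, another early gene, was 23.9 and 14.4 against 62.2, 223.6 and 80.6 in DMSO (1.47 over both treatments, adjusted p = 0.102), and Myc was 73.4 and 77.9 against 165.2, 253 and 207.1 (0.88, adjusted p = 0.135). The members that fell were Il2ra, the interleukin 2 receptor alpha chain (-1.40, adjusted p = 0.00472), and Nfkbia, the inhibitor of NF-κB (-0.56, adjusted p = 0.0227, with a clone term 0.106).

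Subunits of the phagocyte NADPH oxidase, which makes superoxide, were lower in all 6 members without regard to the test, and 2 passed (33.3%, against 5.3% of all genes). Cybb, its catalytic subunit, was 1905.2 and 968.3 in Eμ-TCL1 and 476.3, 457.7 and 327.4 in mutant cells in DMSO, and 627 and 404.9 against 78.8, 73.7 and 46.3 in ibrutinib (a log2 difference of -2.33, standard error 0.32, adjusted p = 0.00439, with a clone term 0.0273). Ncf4, a cytosolic subunit, fell by 1.63 (standard error 0.27, adjusted p = 0.00861, with a clone term 0.0617), with 257.3 and 332.4 against 144.6, 154.9 and 167.4 in DMSO and 86.6 and 93.6 against 18.3, 19.2 and 13.6 in ibrutinib. Myeloid cells also use this enzyme, and summed myeloid markers without Lyz2, which chose the libraries (12 measured), were 103 and 258.5 in Eμ-TCL1 against 70.4 to 122.1 in mutant cells in DMSO, and 145 and 231.2 against 74.7 to 994 in ibrutinib. None of the 12 was called in the limma fit, 2 having an unadjusted p under 0.05, and their part in the oxidase values was not tested.

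Surface genes of B-1 cells and chronic lymphocytic leukemia were mostly lower, with a median of -0.81. Of 21 members, 4 fell (19%, against 5.3% of all genes) and 0 rose. Ctla4, an inhibitory receptor usually known from T cells, was 109.8 and 97.8 in Eμ-TCL1 and 7.4, 12.1 and 7.1 in mutant cells in DMSO, and 89.3 and 91 against 25.5, 25.1 and 19.5 in ibrutinib (a log2 difference of -2.68, standard error 0.29, adjusted p = 0.00163, with a clone term 0.0125). Summed T-cell markers were 289.4 to 330.6 against 201.5 and 683.5 in DMSO and higher in the mutant libraries in ibrutinib, and their part in the Ctla4 values was not tested. Cd80, the ligand of Ctla4 and Cd28, was 38 to 50.4 in Eμ-TCL1 and 9.5 to 20.8 in mutant cells (a log2 difference of -1.47, standard error 0.20, adjusted p = 0.00432, with a clone term 0.0149). Fcer2a (CD23), the low-affinity IgE receptor, fell by 1.97 (adjusted p = 0.00861, with a clone term 0.0562), from 30.5 and 30.1 to 3.4, 4.4 and 3.3 in DMSO. Cd1d1, which presents lipids, fell by 1.02 (adjusted p = 0.0306, with a clone term 0.0864). Cd5, the marker of these leukemias, overlapped in both treatments, with a difference of -0.22 (standard error 0.26, adjusted p = 0.641).

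Among B-lineage transcription factors, 4 of 23 fell (17.4%, against 5.3% of all genes) and 0 rose, with a median of -0.26. Ikzf3 (Aiolos) was 797.7 and 726.3 in Eμ-TCL1 and 292.3, 468.7 and 349.8 in mutant cells in DMSO, and 847.7 and 524.4 against 263.6, 301.7 and 152.4 in ibrutinib (a log2 difference of -1.30, adjusted p = 0.0163, with a clone term 0.0653). Zbtb32, a factor of activated B-cells, Zbtb7b and the coactivator Pou2af1 had differences of -1.62, -0.99 and -1.21 (adjusted p = 0.0208, 0.0157 and 0.0460), and none of the 4 passed with a clone term. The median of these factors was -0.07 in DMSO and -0.89 in ibrutinib, and summed B-cell markers were lower in mutant cells in both treatments, as given above. Of 16 homing receptors, 2 fell (12.5%, against 5.3% of all genes) and both also passed with a clone term. Cxcr5, the receptor that brings B-cells to follicles, fell by 1.37 (standard error 0.24, adjusted p = 0.0121, with a clone term 0.0404), and Itgb7, an integrin of gut homing, fell by 1.40 (standard error 0.20, adjusted p = 0.00496, with a clone term 0.0185), from 284.3 and 291.7 to 87.1, 144.3 and 111.5 in DMSO. Bcl2, the survival factor, was 209 and 194.1 against 106.4, 99.6 and 81.9 in DMSO and 126 and 125.9 against 98, 74 and 50.1 in ibrutinib (a log2 difference of -0.94, standard error 0.18, adjusted p = 0.0154, with a clone term 0.0710). It was the only 1 of 14 measured BCL2 family genes to pass (7.14%, against 8.07% of all genes called in either direction).

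Genes of MHC class II presentation were lower in all 13 members without regard to the test, with a median of -0.94. Of the 13, 4 passed (30.8%, against 5.3% of all genes). The median was -0.31 in DMSO and -1.28 in ibrutinib, where summed B-cell markers without Btk were also lower, at 604.7 to 1654.7 against 2872 and 3792.1. Ifi30, a lysosomal thiol reductase that prepares antigens, fell by 1.08 (standard error 0.18, adjusted p = 0.00936, with a clone term 0.0428) and passed without any 1 library. H2-DMa, H2-DMb2 and H2-Ob, which load peptides onto class II molecules or hold back that loading, had differences of -1.26, -1.42 and -1.15 (adjusted p = 0.0255, 0.0277 and 0.0469, with a clone term 0.0594, 0.0737 and 0.109). The classical class II gene H2-Aa was 1820.1 and 1162.8 against 1535.2, 1306 and 1684.1 in DMSO and 751.3 and 473.6 against 156.8, 279.7 and 305 in ibrutinib (-0.64, adjusted p = 0.263), so that it overlapped in vehicle. Cd74, the invariant chain, had a difference of -0.63 (adjusted p = 0.348).

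Of 28 interferon-stimulated genes, 6 fell (21.4%, against 5.3% of all genes) and 0 rose, 24 were lower without regard to the test, and the median was -0.50. In contrast to the class II genes, their median was -0.92 in DMSO and -0.11 in ibrutinib. Gbp3, a guanylate-binding protein of antimicrobial defence, was 187.4 and 110.2 in Eμ-TCL1 and 28.7, 19.7 and 22.2 in mutant cells in DMSO, and 83.7 and 86.9 against 26.4, 16.4 and 15 in ibrutinib (a log2 difference of -2.35, standard error 0.21, adjusted p = 0.000586, with a clone term 0.00385). Its relative Gbp2 fell by 2.005 (standard error 0.40, adjusted p = 0.0184, with a clone term 0.0785). Ddx58, the RNA sensor RIG-I, fell by 0.87 (standard error 0.12, adjusted p = 0.00472, with a clone term 0.0277), and Stat2, which carries the interferon signal to the nucleus, fell by 0.76 (standard error 0.12, adjusted p = 0.00896, with a clone term 0.0485). Trim30a, a member of the tripartite motif family, fell by 0.82 (adjusted p = 0.0321, with a clone term 0.152).

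The interferon-activated factor complex that holds Stat2 and Irf9 binds an element with the letters GAAA, NN (any bases) and GAAA in a row, searched here on both strands in the 250 bases before the start site. Of the 28 interferon-stimulated genes, 21 matched the RefSeq promoter table of GRCm38.p6. The element was held in 11 of these (52.4%), against 3.46% of the 27025 genes with promoters there. Of the 6 genes that fell, 5 matched and 4 held it. The stretches around the element are shown for these 4, in capitals on the strand of the gene, where the element reads as its reverse complement, and in Gbp3 a pair of matches overlap.
Gbp3, chr3:142559939-142560043, plus strand: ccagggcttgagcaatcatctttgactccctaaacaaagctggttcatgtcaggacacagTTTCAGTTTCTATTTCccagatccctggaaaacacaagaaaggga
Gbp2, chr3:142620544-142620662, plus strand: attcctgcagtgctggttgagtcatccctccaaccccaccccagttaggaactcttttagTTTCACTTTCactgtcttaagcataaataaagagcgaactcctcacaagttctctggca
Stat2, chr10:128270248-128270345, plus strand: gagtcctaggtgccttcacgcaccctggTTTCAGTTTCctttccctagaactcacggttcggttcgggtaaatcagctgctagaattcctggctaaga
Trim30a, chr7:104465194-104465289, minus strand: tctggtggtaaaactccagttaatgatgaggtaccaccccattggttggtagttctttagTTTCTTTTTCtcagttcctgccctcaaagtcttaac
The element began 39, 59, 222 and 36 bases before the start site in Gbp3, Gbp2, Stat2 and Trim30a. A match of letters is a description and does not show binding.

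Ribosome biogenesis genes make and process ribosomal RNA in the nucleolus. Of 34 members, 9 rose (26.5%, against 2.77% of all genes) and 0 fell over both treatments, 3 were called in DMSO and 0 in ibrutinib alone, 32 were higher without regard to the test, and the median was 0.46. Pwp2 was 39.7 and 41.7 in Eμ-TCL1 and 82.3, 77.8 and 80.1 in mutant cells in DMSO, and 9.9 and 14.5 against 20.5, 18.1 and 28.5 in ibrutinib (0.89, standard error 0.15, adjusted p = 0.00943, with a clone term 0.0461). Heatr1 was 134.8 and 140.6 against 286.5, 272.9 and 265.7 in DMSO and 31.9 and 42.2 against 55.1, 42.6 and 57.9 in ibrutinib (0.73, standard error 0.15, adjusted p = 0.0186, with a clone term 0.0901). No mutant library fell to an Eμ-TCL1 level in either gene, although the closest values of Heatr1 in ibrutinib were 42.2 and 42.6. Gnl3, Cd3eap (a subunit of RNA polymerase I), Utp20, Rrp9, Nop14, Ddx51 and Nop56 rose by 0.49 to 0.82 (adjusted p = 0.0163 to 0.0343 for the 7), and Pwp2 alone of the 9 passed with a clone term. In contrast, the 95 cytosolic ribosomal protein genes had a median of 0.04. Of these, Rpl10 and Rps13 rose (0.58 and 0.65), a share of 2.11% that was no higher than the 2.77% of all genes. With a clone term 0 of the 95 passed as higher. Reads of ribosomal proteins may be shared with pseudogenes.

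Of 18 measured circadian clock genes, 2 rose (11.1%, against 2.77% of all genes) and 0 fell, with a median of 0.23. Per1, a repressor of the clock, was 12.9 and 14.2 in Eμ-TCL1 and 37.9, 44.1 and 57.5 in mutant cells in DMSO, and 17.9 and 14.7 against 28.5, 29 and 26 in ibrutinib (1.21, standard error 0.20, adjusted p = 0.00944, with a clone term 0.0691). Ciart, another repressor, was 2.7 and 2.9 against 10, 10.2 and 10.7 in DMSO and 4.3 and 4.2 against 6, 6.1 and 7.3 in ibrutinib (1.04, standard error 0.21, adjusted p = 0.0218, with a clone term 0.113). Mutant replicates lay close together in each treatment. Clock factors act at the E-box CACGTG, a palindrome that does not overlap the interferon element. The promoters of 16 clock genes were found, and 5 of these genes (31.2%) held it, against 6.86% of all genes with promoters. Both genes that rose were among the 5. In Ciart the E-box occurred 3 times, the last 44 bases before the start site. In Per1 it occurred once, 166 bases before a RefSeq start site that lies inside the gene (chr11:69095217-69109960 in GENCODE M21). Capitals mark the E-box.
Per1, chr11:69098723-69098848, plus strand: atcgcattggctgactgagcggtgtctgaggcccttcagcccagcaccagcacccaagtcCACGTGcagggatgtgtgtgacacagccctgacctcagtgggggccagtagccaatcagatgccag
Ciart, chr3:95882229-95882404, minus strand: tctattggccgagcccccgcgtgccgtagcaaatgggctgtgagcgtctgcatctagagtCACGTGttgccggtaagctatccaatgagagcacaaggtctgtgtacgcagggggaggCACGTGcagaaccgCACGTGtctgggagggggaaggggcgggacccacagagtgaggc

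Of 40 mitotic genes, 3 fell and 1 rose (10% called, against 8.07% of all genes), 39 were lower without regard to the test, and the median was -0.92. Racgap1, which directs the cut between daughter cells, was 118.2 and 138.4 in Eμ-TCL1 and 41, 61.9 and 48.2 in mutant cells in DMSO, and 70.2 and 79.2 against 28.7, 33 and 33.8 in ibrutinib (a log2 difference of -1.28, standard error 0.13, adjusted p = 0.00104, with a clone term 0.00605). Aurkb, a mitotic kinase, and Cdc25b, the phosphatase that starts mitosis, had differences of -1.31 and -0.97 (adjusted p = 0.0269 and 0.0230, with a clone term 0.0824 and 0.0711). Pttg1, securin, was the member that rose, by 0.66 (standard error 0.12, adjusted p = 0.0153, with a clone term 0.0635). Mki67 spread widely, at 234.4 and 468.3 against 205.8, 276.9 and 61.9 in DMSO (-1.46, adjusted p = 0.0710). Of 41 G1/S genes, 2 fell and 0 rose, with a median of -0.27, and this share of 4.88% was no higher than the 5.3% of all genes. E2f2, a transcription factor of S-phase entry, was 91.8 and 175.9 against 34.9, 39.3 and 41.6 in DMSO and 46.4 and 66.3 against 12, 13.4 and 11.9 in ibrutinib (a log2 difference of -1.89, standard error 0.19, adjusted p = 0.00104, with a clone term 0.00385). Tk1, thymidine kinase, was 19.4 to 44.8 in Eμ-TCL1 and 0.7 to 10.7 in mutant cells (a log2 difference of -2.92, standard error 0.40, adjusted p = 0.00432, with a clone term 0.0187). Racgap1, E2f2 and Tk1 passed without any 1 library and without any 1 number.

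Of 55 histone genes, 48 were lower without regard to the test, and 4 fell (7.27%, near the 5.3% of all genes), with a median of -0.66. These were Hist1h1d, Hist1h2ab, Hist1h2bb and Hist1h2bg, with differences of -1.59, -1.69, -1.46 and -1.34 (adjusted p = 0.0247 to 0.0457), and none passed with a clone term. Hist1h1d was 222.3 and 286.3 against 40.5, 132.6 and 60.2 in DMSO and 83 and 121.2 against 27.7, 62.2 and 35.4 in ibrutinib. Histone genes have similar sequences, so single members are uncertain. Among 19 amino-acid response genes, Slc7a11, the cystine transporter, was the 1 that passed (5.26%, against 8.07% of all genes called in either direction). It was 0.9 and 1.2 against 8.1, 24.2 and 5.3 in DMSO and 8.3 and 8.7 against 78.2, 36.3 and 20.2 in ibrutinib (2.27, standard error 0.44, adjusted p = 0.0171, with a clone term 0.0470).

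Transcripts of T cells were higher in the mutant libraries mainly in ibrutinib. Of 15 T-cell markers, Cd4 alone rose (6.67%, against 2.77% of all genes). Its difference was 1.49 (standard error 0.39, adjusted p = 0.0464, with a clone term 0.132), at 6.9 and 3 against 10.1, 6.9 and 11.7 in DMSO and 14.1 and 3.9 against 38.7, 27.3 and 43.7 in ibrutinib. The median of the list was -0.35 in DMSO and 1.91 in ibrutinib. Cd3e, a chain of the T-cell receptor complex, was 9 and 14.8 in Eμ-TCL1 and 96, 42.2 and 34.5 in mutant cells in ibrutinib, but 2.8 and 12.8 against 6, 8.2 and 9.3 in DMSO. Of 97 T-cell receptor segments, 17 rose over both treatments (17.5%, against 2.77% of all genes) and 0 fell. Of the 97, 40 were called in ibrutinib and 0 in DMSO, and 0 passed with a clone term. Their sum was 30.1 and 82.4 against 142.7 to 280.8 in ibrutinib, and summed T-cell markers were 187.3 and 645 against 1078.2 to 2159.5. Trbv13-2 was 0.1 to 1 in Eμ-TCL1 and 1 to 1.5 in DMSO and 6.3 to 10.8 in ibrutinib in mutant cells. Of 8 NK-cell markers, Ncr1 and Gzma rose (25%, against 2.77% of all genes), at levels of at most 0.9 and 2.1. Their differences were 0.54 and 0.62 (adjusted p = 0.00624 and 0.0177, with a clone term 0.0329 and 0.0721). No myeloid (12 measured without Lyz2), erythroid (8), plasma-cell (5), platelet (3) or stromal (1) marker passed, with 2, 3, 2, 2 and 0 at an unadjusted p under 0.05. Within ibrutinib, 2 of the 3 platelet markers were called higher, Pf4 at 1.2 and 1.5 against 9.7, 6.1 and 3.5 (log2 difference 1.58, adjusted p = 0.0412) and Ppbp at 2 and 4.8 against 31.8, 12.8 and 11.7 (2.10, adjusted p = 0.0498), alongside the T-cell markers.

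**Figure D5:**
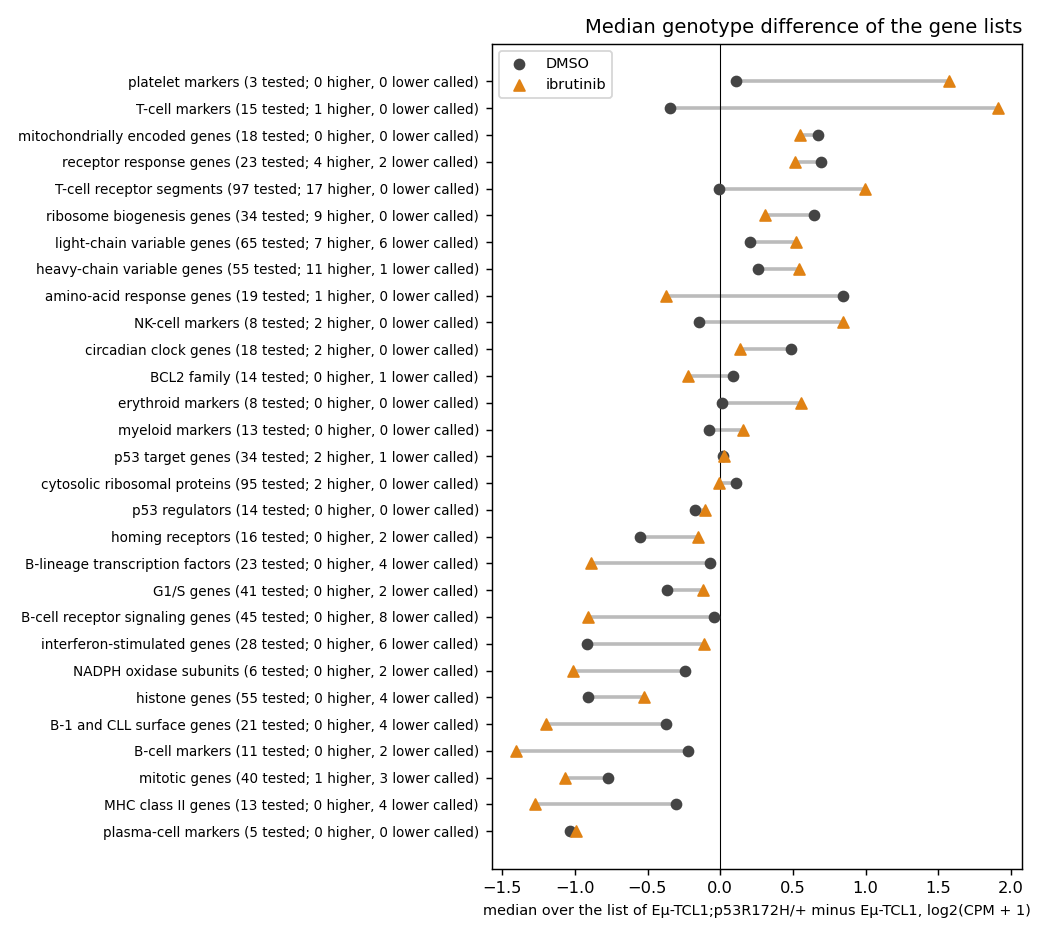
For each gene list, a circle (DMSO) and a triangle (ibrutinib) give the median difference of mutant minus Eμ-TCL1 on the log2(CPM + 1) scale, with the number of genes tested and called over both treatments in the label. T-cell markers lie at -0.35 in DMSO and 1.91 in ibrutinib, MHC class II genes at -0.31 and -1.28, and interferon-stimulated genes at -0.92 and -0.11.

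The 3 genes with the lowest unadjusted p for a different genotype effect in each direction did not pass over all genes (limma interaction). Il1rl1, the receptor of interleukin 33, was 0.5 and 0.3 against 0.2, 0.2 and 0.3 in DMSO and 0.1 and 0.1 against 1.9, 1.4 and 1.8 in ibrutinib (interaction 1.47). The T-cell receptor joining genes Traj12 and Traj2 showed the same pattern, with interactions of 1.95 and 1.55. These were the 3 genes that passed once the clone term was in the model (adjusted p = 0.0304 for each). Within the 10 libraries they were highest in mutant cells in ibrutinib, where summed T-cell markers were also highest. In the libraries left out, Il1rl1 was 12.1 and 8 in Eμ-TCL1 and 0.2, 0.3 and 0 in mutant cells, although T-cell markers were higher in the latter. In the other direction, Xpot, the exporter of transfer RNA, was 71.4 and 73.6 against 135.4, 151.5 and 153.4 in DMSO and 100.2 and 87 against 76.1, 87.7 and 80 in ibrutinib (interaction -1.21).

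The values of the named genes in the 5 libraries left out are given as a description. The 2 left-out Eμ-TCL1 libraries, replicate 2 in DMSO and replicate 1 in ibrutinib, were led by Ighv9-3 and Igkv3-5, and the pair of the chosen Eμ-TCL1 libraries came second, with Ighv1-55 at 198.6 and 162.7 and Igkv12-89 at 264.6 and 220.6. They thus also held transcripts of that pair. Ttn was 45.6 and 32.5 in them, far below the chosen Eμ-TCL1 libraries of the same treatment and above (DMSO) or below (ibrutinib) the chosen mutant libraries. Lipc was 2.7 and 1.7, Hpn 1.1 and 1.2, Ctla4 10.7 and 6.2 and Serpina3g 7.4 and 6.2. Map3k15, at 29.6 and 18.5, and E2f2, at 182.9 and 170.5, were above every chosen mutant library of the same treatment. Map3k15 was above both chosen Eμ-TCL1 libraries in DMSO and below both in ibrutinib, and E2f2 was above both in each treatment. Of the 841 genes that fell, these libraries were nearer to the Eμ-TCL1 mean than to the mutant mean of the same treatment in 256 (30.4%) and 260 (30.9%), against 54.6% and 45.2% of all genes. Of the 439 that rose, they were nearer to Eμ-TCL1 in 227 (51.7%) and 214 (48.7%). The left-out mutant libraries were nearer to the mutant mean for most genes that fell, since they were nearer to Eμ-TCL1 in 267, 258 and 194 of 841 (31.7%, 30.7% and 23.1%, against 55.5%, 54.5% and 38.1% of all genes). Of the 439 that rose, they were nearer to Eμ-TCL1 in 207, 199 and 161 (47.2%, 45.3% and 36.7%), shares closer to those of all genes. In those libraries Serpina3g was 93.4, 91.8 and 46.3, above every chosen mutant library, and Pdcd1 was 1.2, 1.1 and 0.4, below the chosen libraries of both genotypes. The left-out Eμ-TCL1 libraries had more Pdcd1, at 9.9 and 9.5. Pvrl1 was 5.4 and 6.4 in them against 0.9, 1.3 and 0.2 in left-out mutant libraries, and St8sia1 was 13.5 and 13.8 against 0.4, 0.2 and 0.3. Slc6a19 was 5.8 and 4.7 against 6.3, 4.9 and 9.2. Ksr2 kept its direction, at 1.5 and 1.3 against 19.4, 26 and 26.6. These 5 libraries also hold many transcripts of other cells, whose part in these values was not tested. With all 15 libraries in the fit, 666 genes passed, 363 of them among the 1280.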

How the data were processed

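RNA-seq libraries of cultured splenic cells were compared between genotypes. Per the study's methods, the authors aligned reads with TopHat2 (2.0.12) to GRCm38, processed them with SAMtools (0.1.19), counted reads per GENCODE M2 gene with HTSeq, dropped low genes (0.5 CPM) and scaled counts with edgeR (versions not given in the sources used here). The deposited values are a signal in normalized CPM, rounded, whose column sums ranged from 756625.4 to 1359649.7, so the depth behind a value is unknown and intervals for counting error could not be set. They had been planned as plain CPM, and the same test was kept. DMSO and ibrutinib tables were scaled separately.

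Groups came from the labels and libraries from the Btk and Lyz2 values. log2(value + 1) of all genes in both tables was fitted with limma 3.58.1 (R 4.3.3; lmFit, eBayes with trend, Benjamini-Hochberg adjustment, threshold 0.05), with treatment as covariate, or with 4 group means for the effects within treatments and the interaction. The method was tested on simulated data. Libraries of 1 number may share a mouse, and the labels do not say how many animals there were, so p-values measure the spread between these libraries. A two-sided exact permutation test of a single value could not go below 0.01 over libraries or 0.1 over numbers. The correlation of deviations was 0.671 for the Eμ-TCL1 numbers, -0.0169 for mutant replicate 3, 0.489 for replicate 4 and 0.513 for replicate 5. Libraries of a number were thus correlated except in mutant replicate 3, which did not join cells of 1 mouse. The main fit did not take the numbers as pairs and treated the 10 libraries as independent, which the correlations go against. After averaging per number, 58 genes were called.

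The members and gene lists were chosen with earlier results of these data known. Named were 8 genes whatever they showed (Trp53, Mdm2, Cdkn1a, Btk, Cd79a, Lyz2, Cd5 and Map3k15) and the 12 largest changes per direction without overlap of genotypes (receptor segments apart, up to 6). Called members of the lists and the 3 lowest interaction p-values per direction were also named. The remaining genes (among them Bax, Ccng1, Plcg2, Lyn, Bcl10, Nr4a1, Myc, H2-Aa, Cd74, Mki67 and Cd3e) were chosen after their values were seen. Promoters are from RefSeq (GRCm38.p6), and gene positions and variable segments from GENCODE M21 on GRCm38. Some genes that the rule named are not reported here.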

Additional observations from a re-analysis of the deposited data

Results flagged for a closer look

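Signals above the highest of the 10 compared libraries were found in the 5 libraries left out. Summed T-cell markers were 3480.8 and 4105.5 in mutant replicates 1 and 2 in DMSO and 2335.1 in mutant replicate 1 in ibrutinib, against at most 2159.5. Summed NK-cell markers in the same libraries were 899.9, 975 and 469.4, against at most 175.6. Eμ-TCL1 replicate 2 in DMSO and replicate 1 in ibrutinib had 29209.2 and 20717.2 of summed myeloid markers (at most 1182.1 in the compared libraries). That sum includes Lyz2, for which they were left out, and without it they had 21277.8 and 14821.4 (at most 994). They also had 5091.2 and 5026.3 of erythroid markers (at most 91.6) and 79.5 and 85.8 of platelet markers (at most 64.3).

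Their leading variable genes differed as well. Ighv9-3 was 506.7 and 328.3 and Igkv3-5 was 416.3 and 293.6 in those Eμ-TCL1 libraries, against at most 1.9 and 0.7. The second genes there were Ighv1-55, at 198.6 and 162.7, and Igkv12-89, at 264.6 and 220.6, the pair that led the compared Eμ-TCL1 libraries. Mutant replicates 1 and 2 in DMSO had 26.2 and 27.1 of Ighv11-2 (at most 14.1) and 40.2 and 55.8 of Igkv14-126 (at most 30.2), a pair also known from B-1 cells.

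In 215 genes the genotypes did not overlap in either treatment but lay in opposite directions, and 1 of these was a named gene. 4931406P16Rik was 70.8 and 61.9 in Eμ-TCL1 against 75.4, 72.5 and 82 in mutant cells in DMSO, and 96.9 and 91.1 against 43.8, 39.7 and 49.9 in ibrutinib. The interaction was -1.27 on the log2 scale (limma, unadjusted p = 0.000184, adjusted p = 0.240) and did not pass.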

How the results depend on the processing

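The count of 1280 genes was 666 (138 higher, 528 lower) with a replicate block of the number as a fixed term, 575 with genotype and number as a random replicate block, 58 after averaging per number, 327 with the clone term and 666 with all 15 libraries. It ranged from 541 to 1421 without 1 library, and was 719 and 503 without Eμ-TCL1 numbers 3 and 4, and 440, 1127 and 340 without mutant numbers 3, 4 and 5. The higher and lower calls were 561 and 769 with quantile normalization and 525 and 757 with median-ratio rescaling. With sex as a covariate 1919 genes were called, 812 higher and 1107 lower, and 993 of them were among the 1280. With T-cell markers as a covariate 1667 were called, 981 of them among the 1280. In DMSO, 470 became 1339 with sample weights, 293 with the clone term and 46 to 950 without 1 library. In ibrutinib, 498 became 274 for genes with a mean of at least 5 and 38 to 574 without 1 library. The interaction gave 3 genes with the random replicate block and 3 with the clone term. The cause of these changes was not tested.

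Of the 96 named genes that passed, 49 passed without any 1 library and 31 of these without any 1 number, 44 with the clone term, 80 with sex and 85 with T-cell markers as a covariate, and 29 with all 15 libraries. With the number as a random or a fixed term 62 and 61 passed, and after averaging per number 15 passed. With all 15 libraries these log2 differences changed sign: Bcl2 0.79, Cd5 0.74, Cdkn1a -1.03, Ighg2b -0.56, Ighg2c -0.51, Il1rl1 -0.69, Mdm2 -0.27, Ptgir -0.0018, Slc7a11 -0.47 and Trim30a 0.0911. Cd5 was 0.0852 without mutant number 4 and 0.1247 with sex as a covariate. Cdkn1a was -0.10 without Eμ-TCL1 number 3, -0.23 without mutant number 4 and -0.33 with sex, and -0.12 to 0.49 without 1 library. Mdm2 was -0.0432 without Eμ-TCL1 number 3, -0.0285 without mutant number 3, and -0.0188 to 0.1176 without 1 library. Of these, Bcl2, Ighg2b, Ighg2c, Ptgir, Slc7a11 and Trim30a had passed in the 10 libraries. Read depth is unknown. With 2 Eμ-TCL1 numbers the genotype cannot be told apart from the leading variable genes that both share, or from a clone they may share.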
